A study of Rattus norvegicus with 16 samples.

Results

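The piRNA annotation used for the small RNA libraries of this study lists some piRNAs at very many places in the rat genome (rn5). Of its 58165 entries, 201 were listed at 100 or more places, and these many-place piRNAs are described here. They were chosen by the number of listed places alone, with no use of their counts, and each was assigned to the repeat name that overlapped most of its places. The small RNA came from germ cells of male GCS-eGFP Sprague-Dawley rats, which carry an eGFP transgene active in germ cells. The rats were fed either a high fat diet (HFD, with 40% of calories from fat by the sample labels and a slightly higher share by the paper's text) or a control diet (CD, 10%) from weaning until 19 weeks of age. Testicular cells were sorted for eGFP, so each library holds germ cells of mixed stages, and there were 4 small RNA libraries per diet. The gene tables do not pair identifiers with symbols, so that germ cell markers and the genes of the piRNA pathway were not analysed here.

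piRNAs are small RNAs that are bound by PIWI proteins and are made mainly in germ cells. Many are cut from long precursor transcripts, and those that match transposable elements guide PIWI proteins to the transcripts of these elements. In the testis, piRNAs that match repeats are known for keeping L1 elements and endogenous retroviruses silent, while most piRNAs of later germ cells match few repeats. L1 elements are long interspersed elements that copy themselves through RNA. SINEs such as B1, B2 and ID are short elements copied by the L1 machinery, and LTR elements, among them the intracisternal A particle (IAP), are endogenous retroviruses and their relatives.

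The 201 many-place piRNAs were 0.346% of all entries but held 827336 of the 904707 listed places, or 91.4%. By contrast, 50830 entries were listed at 1 place, 6842 at 2 to 9 and 292 at 10 to 99. A many-place piRNA had a median of 1152 places, with a range from 102 to 33412. Its places were spread over the genome, since 196 of the 201 had places on 20 or more chromosomes. The entries were between 17 and 31 bases wide, with a median of 28.

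Almost all of these places lay in annotated repeats. On average over places, 99.2% overlapped a repeat copy, against 18.6% for entries with 1 place and 90.5% for those with 10 to 99. The assigned repeat name covered a median of 50.4% of an entry's places (interquartile range 41.3% to 76.6%), and related names covered most of the others. For 28 entries 1 name covered over 90%. Only 4 of the 201 had less than 50% of their places in any repeat, and all 4 fell to the name L1VL4a, so that this assignment rests on few of their places. For rat_piRNA_68347 it rests on 1.92% of 312 places.

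The entries belonged to 37 repeat names, which were grouped by the start of the name. L1 and related elements held 119 entries, SINEs 35 and LTR elements 47. The L1 names with the most entries were L1_Rn with 35, L1_Rat1 with 24 and L1_Rn2 with 16. B2_Rat4 led the SINEs with 16, and RNIAP1a, a rat IAP element, led the LTR elements with 10. Other names with 8 to 10 entries were RNHAL1 (10), L1_Rat4 (9), B2_Rat2 (8), L1_Rat3 (8) and Lx (8). LTR entries had far fewer places, with a median of 197, than L1 entries (3048) or SINE entries (3649), and they held 1.74% of all places of the 201.

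Every entry is annotated on the plus strand at every place, whichever way the repeat copy under it runs. Of the 390125 places that lay in a copy of the assigned repeat, 195285, or 50.1%, lay on plus-strand copies. The share was 50.1% for L1, 50.2% for SINE and 47.9% for LTR entries, and it was between 40% and 60% for 194 of the 201. Reads were counted on one genomic strand. For about as many places of a repeat name, the counted strand was therefore sense to the element as antisense, and the counts do not part sense from antisense piRNAs. The files hold no piRNA sequences, and none are shown.

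The 201 entries took a small share of the piRNA counts. By the paper, uniquely aligned reads were counted, whereas a read that lies within an entry and matches each of its places would not be unique. The sources do not say which reads gave these counts, so a count here need not be a read that matches 1 place alone. The counts on all piRNAs summed to between 891575 and 1240080 per library, and those on the many-place piRNAs to between 2129 and 3637. The floor of 3 counts is at most 0.000336% of a library's piRNA counts. By library, the many-place piRNAs held 0.256%, 0.252%, 0.293% and 0.242% of the piRNA counts on the HFD. On the CD they held 0.218%, 0.227%, 0.289% and 0.262%. Replicate 3 had the highest share on both diets, and the diets overlapped. The 95% Wilson interval was 0.209% to 0.227% for the lowest library and 0.284% to 0.303% for the highest. It covers counting error only and no difference between rats. Reads were not counted by molecular identifiers, so that it may be too narrow for counting error as well.

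**Figure D1:**
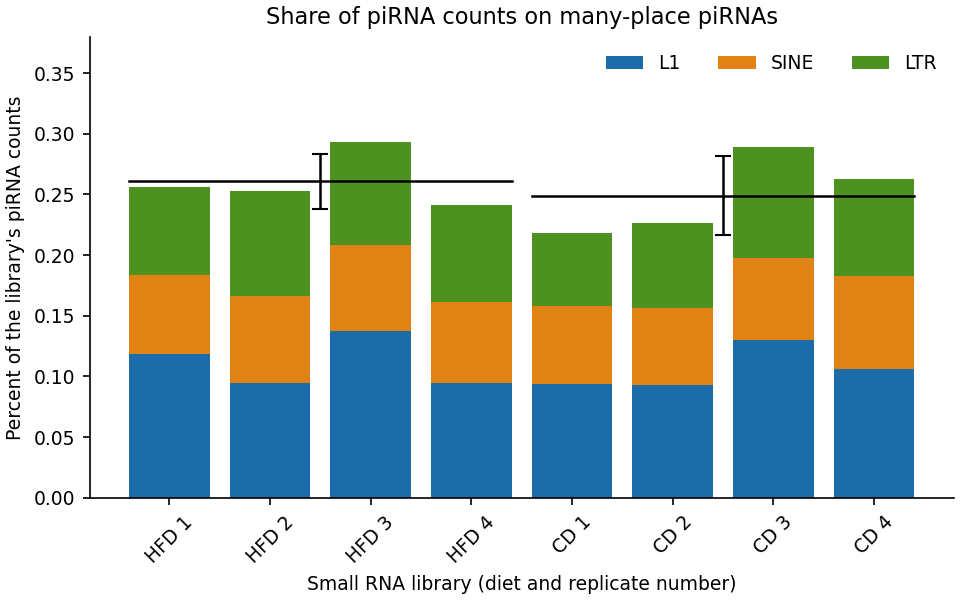
Percent of each small RNA library's piRNA counts (vertical axis) that fell on the 201 many-place piRNAs, by library (horizontal axis: diet and replicate number), split into L1, SINE and LTR entries. Black lines are the diet means and error bars the SD over 4 libraries, 0.261% ± 0.022 in HFD libraries and 0.249% ± 0.033 in CD libraries. Replicate 3 of each diet has the tallest bar.

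The mean share was 0.261% ± 0.022 in HFD libraries and 0.249% ± 0.033 in CD libraries (SD, n = 4 each), a difference of 0.012 percentage points that was smaller than the SD of either diet (two-sided exact permutation test over 70 labellings, p = 0.571, adjusted p = 0.8 over 4 comparisons). With 4 libraries per diet, the smallest p such a test can give is 0.0286. L1 entries held 0.111% ± 0.021 in HFD libraries and 0.106% ± 0.017 in CD libraries (SD, n = 4; exact permutation, p = 0.686). SINE entries held 0.0687% ± 0.0032 and 0.0678% ± 0.0060 (SD, n = 4; exact permutation, p = 0.8). LTR entries held 0.0809% ± 0.0063 and 0.0753% ± 0.013 (SD, n = 4; exact permutation, p = 0.486). The adjusted p was 0.8 for each, and in all 3 classes the diets overlapped. The high share of replicate 3 on both diets came mostly with the L1 entries. They held 0.137% in HFD replicate 3 and 0.130% in CD replicate 3, against 0.0932% to 0.118% in the other 6 libraries. A single L1 entry, rat_piRNA_69826, had 201 and 106 of these counts in replicate 3, against 5 to 26 in each of the other 6. In CD replicate 3 the LTR share, 0.0910%, was also the highest of all libraries.

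Most many-place piRNAs had at least some counts. Of the 201, 174 (86.6%) had a count in at least 1 of the 8 libraries, 95 had a count in all 8 and 27 had none. This share was 16.4% for entries with 1 place, 28.9% for those with 2 to 9 and 53.8% for those with 10 to 99. A mean count of at least 1, the limit for the tests, was reached by 136 entries and a mean of at least 10 by 59. By class, 99 of 119 L1, 30 of 35 SINE and 45 of 47 LTR entries had counts. Within 1 library, between 127 and 148 of the 201 had a count.

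The counts were low and unevenly divided. The median entry had a mean count of 2.75 over the 8 libraries, and the 10 entries with the most counts held 43.6% of the 21372 counts on all 201. The 59 entries with a mean of at least 10 held 88.3%. Per listed place the 201 entries drew 0.00323 counts in a library, against 15.2 for entries with 1 place and 0.863 for those with 10 to 99. The number of places did not go with the count within the 201, with a Spearman rho of 0.017 across 201 entries, which share libraries and, in part, places. Counts per 100 places were highest for LTR entries, at 5.70, which had the lowest median number of places. They were 0.297 for SINE and 0.199 for L1 entries, although SINE entries had a higher median number of places than L1 entries.

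**Figure D2:**
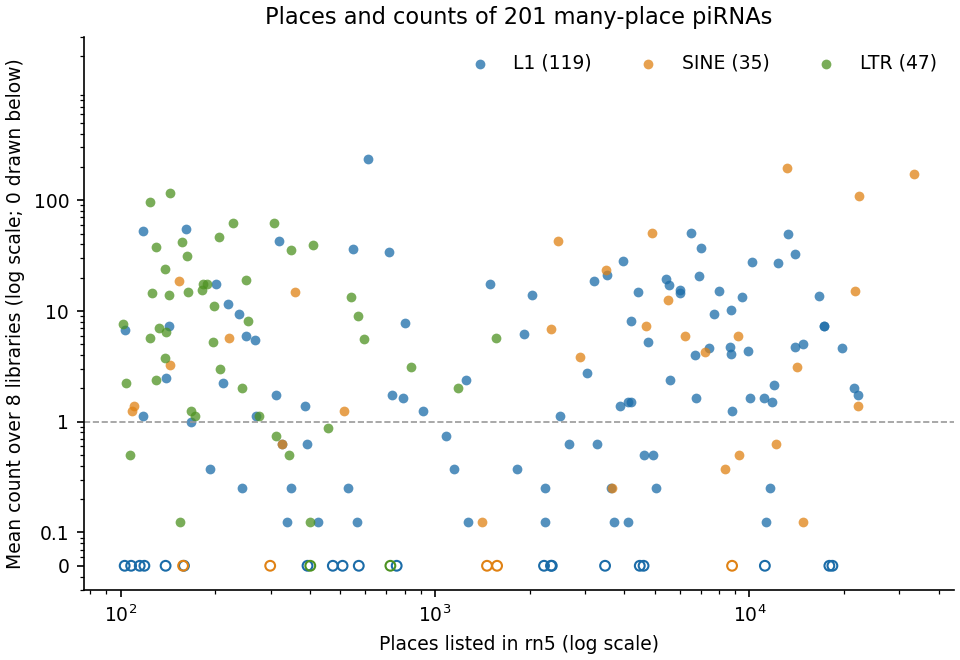
Number of places listed in rn5 (horizontal axis, log scale) and mean count over 8 libraries (vertical axis, log scale) for each of the 201 many-place piRNAs, coloured by class with the number of entries in brackets. Open circles at the bottom are the 27 entries with no count, and the dashed line is the mean count of 1 required for a test. High and low counts occur at every number of places, and LTR entries lie mostly at few places.

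Many of these entries lie over each other. At least 1 place was shared with another entry for 63.7% of the 201. This share was 87.4% for entries with 1 place, 82.2% for those with 2 to 9 and 52.4% for those with 10 to 99. Sharing was thus most common among entries with 1 place and least among those with 10 to 99. The authors counted with the default of featureCounts, under which a read that overlaps 2 entries is assigned to neither. For 91 entries at least 50% of the places overlapped another entry, and 23 of these had no count (74.7% had counts, with a median mean count of 0.625). Of the 73 entries with no shared place, 3 had no count (95.9% had counts, with a median mean count of 7.75). Of the 37 between these, 1 had none. The entries with at least 50% shared places also had more places, with a median of 3703 against 347 for those with none, and the part of sharing in the low counts was not tested. The 201 are therefore not 201 independent items: joined where they shared at least 50% of the places of the smaller entry, they formed 132 sets, of which 104 were single entries.

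The largest of these sets held 20 SINE entries of B2_Rat2, B2_Rat3 and B2_Rat4. Its counts summed to 2028 over the 8 libraries, 42.9% of them on rat_piRNA_177196, and 3 of the 20 had none. A set of 7 L1 entries had 439 counts, of which rat_piRNA_69826 held 92.3%. A set of 5 entries of Lx, an older L1 group of rodents, had no count in any library. Within such sets, the counts thus lay mostly on few of the overlapping entries.

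By repeat name, B2_Rat4 entries held the most counts with 2977 over the 8 libraries, or 13.9% of the counts on many-place piRNAs. RNIAP1a followed with 10.6%, B2_Rat2 with 10.1%, L1_Rn with 9.13%, Lx4A with 8.90%, RNLTR4-int with 6.61%, L1_Rat1 with 5.16%, L1_Rat3 with 5.10%, L1_Rn2 with 3.71% and Lx3A with 3.35%. The order by counts was thus not the order by number of entries: L1_Rn had 35 entries and 1951 counts, while Lx4A had 1 entry and 1903. The 10 RNIAP1a entries all had counts, 17.2 per 100 places, against 0.0993 for L1_Rn and 0.0580 for L1_Rat1. B2_Rat3, with 2 entries, and B1_Mur4, with 1, had none.

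The entry with the most counts was rat_piRNA_182634, listed at 611 places, 46.8% of them in Lx4A. It had 250, 171, 263 and 249 counts on the HFD and 219, 276, 256 and 219 on the CD. In counts per 1000000 piRNA counts (CPM, with TMM scaling), this was 219.4 ± 33.1 in HFD libraries and 236.8 ± 12.998 in CD libraries (SD, n = 4 each). HFD replicate 2 was the lowest of the 8, and the diets overlapped. The log2 fold change, HFD minus CD, was -0.11 (standard error, SE, 0.12; edgeR adjusted p = 0.996).

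The next 2 were B2 entries with overlapping places. rat_piRNA_83833, at 13166 places and assigned to B2_Rat2, had 157, 175, 216 and 226 counts on the HFD and 192, 223, 180 and 206 on the CD. rat_piRNA_87579, the entry with the most places of all 58165, 33412, was assigned to B2_Rat4 and had 161, 165, 215 and 202 counts on the HFD and 144, 158, 183 and 167 on the CD. Both were even between libraries, with a coefficient of variation over the 8 libraries of 8.82% and 7.65%, and in both the diets overlapped. Their log2 fold changes were -0.11 (SE 0.11) and 0.13 (SE 0.11; edgeR adjusted p = 0.996 for both).

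rat_piRNA_177196, a B2_Rat4 entry at 22282 places, had 79, 90, 161 and 114 counts on the HFD and 85, 88, 123 and 129 on the CD. It was less even, with a coefficient of variation of 19.3%, and its log2 fold change was -0.02 (SE 0.17; edgeR adjusted p = 0.996). These 3 B2 entries shared 62.8% to 84.6% of their places with other entries, so that reads overlapping both are missing from their counts.

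Of the 10 highest entries, 4 were assigned to LTR elements. rat_piRNA_148463, at 144 places and assigned to the internal part of the endogenous retrovirus RNLTR4, had 127, 98, 156 and 152 counts on the HFD and 101, 97, 98 and 110 on the CD. Once scaled, 3 of its 4 HFD libraries were above all CD libraries, and HFD replicate 2 lay within the CD range. Its log2 fold change was 0.32 (SE 0.12; edgeR adjusted p = 0.996, unadjusted p = 0.0198). rat_piRNA_62327, at 124 places and 96.8% in RNIAP1a, had 61, 121, 142 and 113 counts on the HFD and 35, 118, 105 and 81 on the CD. Replicate 1 was its lowest library on both diets, and its log2 fold change was 0.32 (SE 0.25; edgeR adjusted p = 0.996).

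rat_piRNA_182123, at 227 places and assigned to RNLTR12-int, had 12, 84, 31 and 95 counts on the HFD and 15, 70, 166 and 29 on the CD. High and low libraries occurred on both diets, and its coefficient of variation was 83.0%. rat_piRNA_69427, assigned to RNLTR7-int at 308 places, had 53, 59, 77 and 59 counts on the HFD and 42, 57, 74 and 75 on the CD, with a coefficient of variation of 18.5%. The log2 fold changes of the pair were -0.36 (SE 0.55) and -0.06 (SE 0.18; edgeR adjusted p = 0.996 for both).

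The other 2 of the 10 were L1 entries that lay almost wholly in 1 name. rat_piRNA_160884, at 161 places and 93.8% in Lx3A, had 74, 36, 66 and 37 counts on the HFD and 66, 46, 75 and 43 on the CD. rat_piRNA_180860, at 118 places and 91.5% in L1_Rat3, had 42, 49, 69 and 69 on the HFD and 37, 49, 56 and 55 on the CD. In the first, replicates 1 and 3 were high on both diets, while the second was more even, with a coefficient of variation of 13.5%. Neither differed between diets by more than its standard error (log2 fold changes -0.16 with SE 0.25 and 0.15 with SE 0.16; adjusted p = 0.996 for both from edgeR).

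Just inside the limit of 100 places, rat_piRNA_174661 (NICER-int, 102 places) had 3 to 12 counts per library, rat_piRNA_176619 (L1_Rat4, 103 places) also 3 to 12, and rat_piRNA_165558 (L1_Rn2, 103 places) had none. Just outside it, rat_piRNA_166158 (RNIAP1a, 99 places) had 9 to 26, rat_piRNA_156193 (RNIAP1a, 99 places) 9 to 19 and rat_piRNA_147484 (RNLTR3a-int, 98 places) 0 or 1. High and low entries thus stood on both sides of the limit.

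To ask whether single many-place piRNAs differed with diet, all 7818 piRNA entries whose mean count reached 1 were fitted together with edgeR's quasi-likelihood test, and p-values were adjusted over all of them. Of the 136 many-place piRNAs in the fit, 0 had an adjusted p under 0.05, as did 0 of all 7818 entries (0.0%), and the lowest adjusted p among the 136 was 0.996. An unadjusted p under 0.05 was found for 11 of the 136 (8.09%), beside 3.02% of all entries tested. Of these, 7 were higher and 4 lower on the HFD. DESeq2 with shrunken fold changes, the authors' test, also gave 0 with an adjusted p under 0.05. By that test 9 of the 136 had an unadjusted p under 0.05, beside 75 of all 7818 entries.

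In 6 of the 136 (4.41%) the 4 HFD and the 4 CD libraries did not overlap in CPM, beside 2.44% of all entries tested. HFD libraries were all above in 5 of the 136, beside 115 of all 7818 entries (1.47%). They were all below in 1 of the 136, beside 76 of all 7818 (0.972%). The 136 entries had a median log2 fold change of 0.12, 76 above 0 and 60 below, and the median of all 7818 was -0.00. The medians of the 136 ran from -0.06 to 0.19 when the test, its settings or 1 library was changed, so that the side of 0 on which they lay was not stable. The size of the folds fell as the count rose. The median absolute log2 fold change of the many-place piRNAs was 0.57 at mean counts of 1 to under 10, 0.25 at 10 to under 100 and 0.11 at 100 or more. For other piRNAs it was lower in each of these bands, at 0.38, 0.14 and 0.07. Of these 7682 others 6014 had 1 place, and the 107 with 10 to 99 places were not examined apart.

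**Figure D3:**
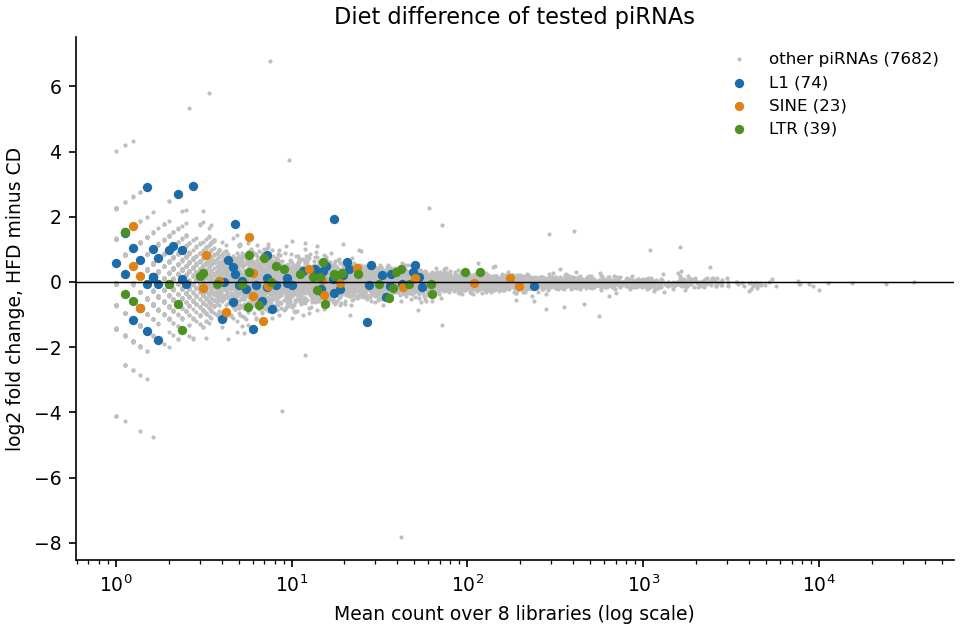
log2 fold change (vertical axis, HFD minus CD, from edgeR) against the mean count over 8 libraries (horizontal axis, log scale) for the 7818 piRNA entries tested. Grey points are 7682 other piRNAs, and coloured points are the 136 many-place piRNAs by class, with the number of each in brackets. Folds narrow towards 0 as counts rise, and 0 entries had an adjusted p under 0.05.

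The smallest unadjusted p among many-place piRNAs belonged to rat_piRNA_62376, listed at 1495 places of which 93.2% lay in L1_Rat3. It had 22, 29, 31 and 30 counts on the HFD and 1, 8, 17 and 2 on the CD. Its 4 HFD libraries lay above its 4 CD libraries, and the CD libraries spread widely (26.5 ± 4.0 CPM for HFD and 6.61 ± 6.84 CPM for CD, SD, n = 4 each). Its log2 fold change was 1.93 (SE 0.42; edgeR adjusted p = 0.996, unadjusted p = 0.000294). It shared no place with another entry. With every entry of at least 1 count kept in the fit, its adjusted p from edgeR was 4.74e-07. In that fit 28 of all 10622 entries had an adjusted p under 0.05, among them 2 of 174 many-place piRNAs. Without CD replicate 3, the highest CD library, its adjusted p from edgeR was 0.0391. Without any other library it stayed at 0.986 or more, and DESeq2 without shrinkage gave an adjusted p of 0.163.

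The counts on all L1_Rat3 copies can hardly show a change in this entry. Its mean count was 17.5, against 8825 on the copies, and the 8 many-place piRNAs of L1_Rat3 came to 1.54% of the latter. On the copies of L1_Rat3 the authors counted 7390, 7544, 11489 and 9643 reads on the HFD and 7555, 9240, 9709 and 8030 on the CD, on either strand. The log2 fold change of these counts was 0.03 (SE 0.06; edgeR adjusted p = 0.992 over 755 repeat names). The 8 many-place piRNAs of L1_Rat3 summed had a log2 fold change of 0.29 (SE 0.14; edgeR adjusted p = 0.958), and rat_piRNA_62376 is among them. The piRNA and the repeat counts come from the same libraries and share reads.

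rat_piRNA_62590, an L1_Rn entry at 12308 places, was the second by unadjusted p and went the other way. It had 11, 13, 33 and 10 counts on the HFD and 37, 28, 66 and 18 on the CD. Replicate 3 was its highest library on both diets, and HFD replicate 3 was above 2 of the CD libraries once scaled. Its log2 fold change was -1.22 (SE 0.37; edgeR adjusted p = 0.996, unadjusted p = 0.00439). With every entry of at least 1 count kept, the adjusted p from edgeR was 0.000337, in the same fit that passed 28 of all 10622 entries. rat_piRNA_62376 and rat_piRNA_62590 were the 2 of the 136 that passed in any fit over all 8 libraries.

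The other 3 of the 5 smallest p-values belonged to entries with few counts. rat_piRNA_67932 (L1_Rn, 8660 places) had 9, 5, 10 and 6 counts on the HFD and 1, 1, 5 and 1 on the CD, with a log2 fold change of 1.79 (SE 0.55; edgeR adjusted p = 0.996). rat_piRNA_66079 (B2_Rat4, 2345 places) had 4, 4, 4 and 5 on the HFD and 8, 7, 14 and 9 on the CD, with a log2 fold change of -1.20 (SE 0.39; edgeR adjusted p = 0.996). rat_piRNA_83352 (B1_Rn, 221 places) had 6, 4, 15 and 9 on the HFD and 4, 2, 4 and 2 on the CD, with a log2 fold change of 1.38 (SE 0.47; edgeR adjusted p = 0.996). In all 3 the diets did not overlap in CPM, at differences of a few reads per library.

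**Figure D4:**
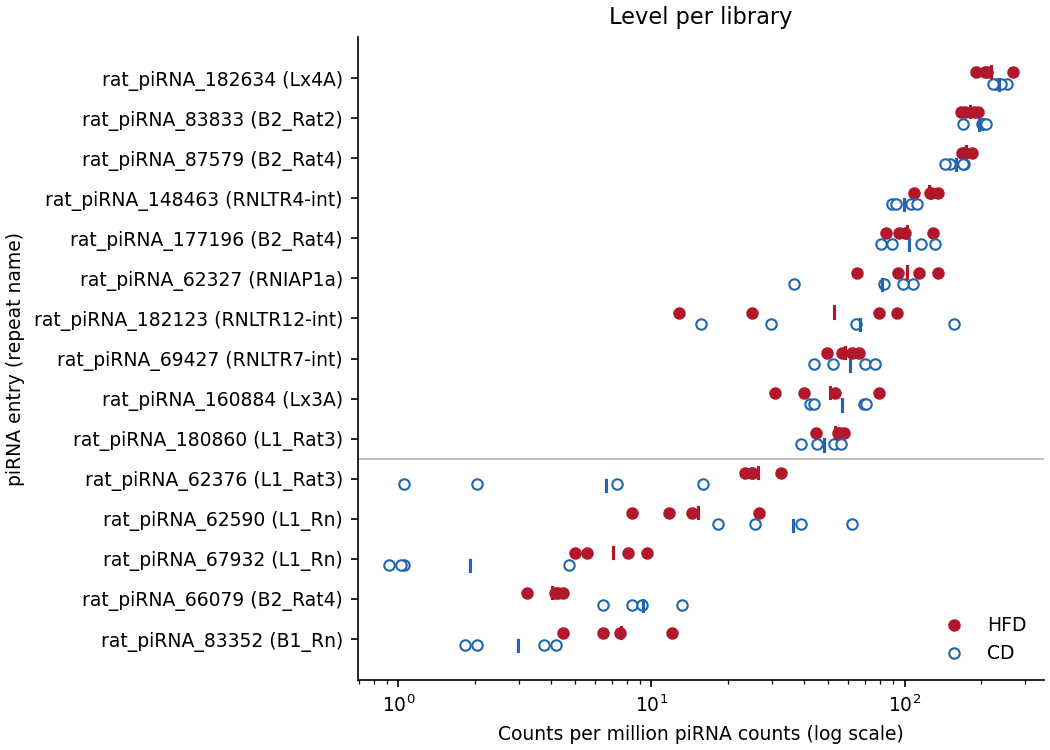
CPM relative to piRNA counts (horizontal axis, log scale) in each library for the 10 many-place piRNAs with the most counts (above the grey line) and the 5 with the smallest p-values (below it), with the assigned repeat name in brackets. Filled red points are HFD and open blue points CD libraries, and short vertical lines are the means of 4 libraries. The diets overlap in all of the upper 10 entries and in 1 of the lower 5, rat_piRNA_62590.

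Counts were then summed by repeat name, separately for entries with 100 or more places and for all others, and the 318 sums whose mean count reached 1 were fitted together. The many-place piRNAs of 34 repeat names were among them. By edgeR's quasi-likelihood test 0 of the 34 had an adjusted p under 0.05, as did 0 of all 318 (0.0%), with a lowest adjusted p of 0.958. DESeq2 with shrunken fold changes likewise gave 0, with 1 of the 34 at an unadjusted p under 0.05, beside 1 of all 318 sums. By edgeR 2 of the 34 (5.88%) had an unadjusted p under 0.05, beside 3.14% of all sums. The median log2 fold change of the 34 was 0.16, 22 above 0 and 12 below, beside a median of -0.01 over all 318 sums. Without HFD replicate 3 the median of the 34 was -0.03, 15 above 0 and 19 below, so that its side of 0 rested on that library.

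The pair with an unadjusted p under 0.05 were B1_Rn and RNLTR4-int. The 5 entries of B1_Rn, a SINE, together had 20, 8, 27 and 16 counts on the HFD and 7, 8, 6 and 11 on the CD. HFD replicate 2 lay within the CD range. The log2 fold change was 1.06 (SE 0.35; edgeR adjusted p = 0.958, unadjusted p = 0.0122). All copies of B1_Rn together had 30924 to 44135 reads per library with a log2 fold change of 0.03 (SE 0.05). The counts on its many-place piRNAs, wherever their places lay, came to 0.0361% of this number.

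The 6 entries of RNLTR4-int together had 188, 144, 221 and 235 counts on the HFD and 158, 144, 166 and 156 on the CD. Their log2 fold change was 0.26 (SE 0.10; edgeR adjusted p = 0.958, unadjusted p = 0.0291). rat_piRNA_148463 held most of these counts. The copies of RNLTR4-int together had a log2 fold change of 0.03 (SE 0.05), and the counts on the 6 entries came to 3.11% of theirs.

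The names with the most counts lay closer to 0. The 16 B2_Rat4 entries had 318, 320, 487 and 412 counts on the HFD and 308, 332, 416 and 384 on the CD, with a log2 fold change of 0.02 (SE 0.09). The 10 RNIAP1a entries had 234, 300, 372 and 303 on the HFD and 191, 293, 296 and 268 on the CD, with 0.15 (SE 0.13). The 8 B2_Rat2 entries had 219, 245, 317 and 301 on the HFD and 256, 306, 251 and 265 on the CD, with -0.06 (SE 0.08). In these names the many-place piRNAs of both diets overlapped. The 35 L1_Rn entries had 254, 166, 343 and 256 counts on the HFD and 182, 186, 330 and 234 on the CD, with a log2 fold change of 0.06 (SE 0.19) and replicate 3 highest on both diets. The adjusted p of all 4 was 0.958 or more from edgeR. Over all copies, B2_Rat4 had a log2 fold change of -0.10 (SE 0.04; edgeR unadjusted p = 0.0307). This was -0.08 (SE 0.09) for RNIAP1a, 0.03 (SE 0.07) for B2_Rat2 and -0.03 (SE 0.12) for L1_Rn. The edgeR adjusted p over all copies was 0.992 for each.

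Of the names by entries or by counts not yet given, L1_Rat1 had a log2 fold change of 0.16 (SE 0.21) between 87 and 234 counts per library and L1_Rn2 one of 0.18 (SE 0.18) between 67 and 155. RNHAL1, a relative of L1, had 0.06 (SE 0.32) between 28 and 79 counts, L1_Rat4 had -0.10 (SE 0.14) between 39 and 61, and Lx had 0.48 (SE 0.79) between 0 and 4. Lx3A had -0.27 (SE 0.26) between 54 and 115 counts. In none of these was the adjusted p from edgeR below 0.958.

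In the authors' repeat table, which counts reads on every copy of a repeat on either strand, the 37 names with a many-place piRNA held 7.16% of all counts. The counts on many-place piRNAs came to 1.35% of those counts in all, and by name from 0% (B2_Rat3 and B1_Mur4) to 23.3% (RNLTR7-int). They were 18.6% for L1_Rn, 21.0% for Lx4A, 6.79% for RNIAP1a, 5.56% for B2_Rat4 and 0.334% for L1_Rat4. These are ratios of counts and not parts of a whole. The piRNA counts are on one strand and include places outside the assigned name. The single Lx4A entry, for example, had 46.8% of its places in Lx4A. Of 755 repeat names tested, 1 had an adjusted p under 0.05 (0.132%), FordPrefect, to which no many-place piRNA was assigned. Among the 37 names 0 passed by edgeR, and 4 of the 37 had an unadjusted p under 0.05, beside 27 of all 755 (3.58%). The 4 were RNLTR7-int and RNERVK9-int (both with a log2 fold change of -0.46), B2_Rat4 (-0.10) and L1VL4a (0.12). By DESeq2 with shrunken fold changes 0 passed, and 4 of the 37 had an unadjusted p under 0.05, beside 12 of all 755. The log2 fold changes of the 37 names ran from -0.46 to 0.83 with a median of 0.03.

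The spread between libraries was examined last. For the 136 many-place piRNAs whose mean count reached 1, the median SD of log2(CPM + 1) over the 4 libraries of a diet was 0.52 in HFD and 0.56 in CD libraries. For entries with 1 place it was 0.29 and 0.32. The spread fell as the count rose. At mean counts of 1 to under 10 the median SD of many-place piRNAs was 0.72 and 0.71 (77 entries), and that of entries with 1 place 0.59 and 0.60. At 10 to under 100 it was 0.31 and 0.41 (54 entries) against 0.27 and 0.28, and at 100 or more 0.13 and 0.14 (5 entries) against 0.14 and 0.16. Many-place piRNAs thus had a higher median than entries with 1 place in both lower bands and not in the highest, which has 5 entries. Entries with 10 to 99 places had medians of 0.59 in HFD and 0.80 in CD libraries at mean counts of 1 to under 10. At 10 to under 100 these were 0.37 and 0.33. Each class was thus the wider on 1 diet in each lower band, and a wide spread was not particular to the many-place piRNAs. No test was made of these medians, since overlapping entries of the same libraries are not independent.

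**Figure D5:**
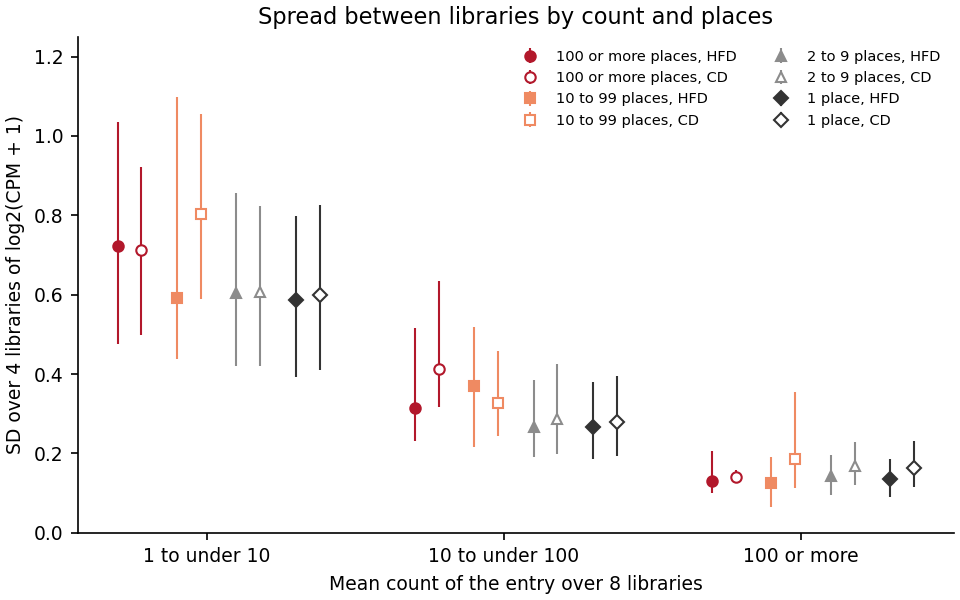
SD over the 4 libraries of a diet of log2(CPM + 1) (vertical axis) by mean count over 8 libraries (horizontal axis) and by the number of places. Points are medians over entries and bars run from the first to the third quartile, with filled symbols for HFD and open symbols for CD. The spread falls with the count, from 0.72 on the HFD at mean counts under 10 to 0.13 at 100 or more for entries with 100 or more places.

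At mean counts of 10 to under 100, the median coefficient of variation of the many-place piRNAs was 29.4%. Some L1 and LTR entries of this band were far less even than that median. rat_piRNA_69826, an L1_Rat2 entry at 6528 places chosen after its values were seen, had 25, 15, 201 and 7 counts on the HFD and 20, 26, 106 and 5 on the CD, a coefficient of variation of 124.1%. Replicate 3 held most of its counts on both diets, while all copies of L1_Rat2 had 5061 to 7897 reads per library. rat_piRNA_83598, an L1_Rn entry chosen in the same way, had 25, 0, 2 and 13 counts on the HFD and 0, 1, 6 and 34 on the CD (133.5%). rat_piRNA_163261, assigned to RNNICER2-int and also chosen so, had 5, 9, 53 and 11 on the HFD and 19, 5, 28 and 9 on the CD (82.5%). High libraries occurred on both diets in each, and these entries did not mark a diet.

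More than 50% of an entry's counts came from 1 library in 5 of the 136 many-place piRNAs (3.68%) and in 34 of the 7682 other piRNAs tested (0.443%). All 5 were L1 entries with 8 to 22 counts in all, and their highest library was HFD replicate 3 in 3 of them and HFD replicate 1 in 2. Among entries whose mean count reached 10 there were 0 of 59 many-place piRNAs and 8 of 4791 others. When scaled by library, 23 of the 136 (16.9%) were highest in replicate 3 of both diets, against 10, 5 and 6 for replicates 1, 2 and 4. For other piRNAs the share was 6.30% in replicate 3 and between 4.65% and 9.91% in the others. Most of these other piRNAs, 6014 of 7682, had 1 place, and those with 10 to 99 places were not examined apart. The labels do not say whether libraries of the same number were handled together, and the part of such handling was not tested.

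Summed by repeat name, the many-place piRNAs were less even than the copies of the same repeats, with a median coefficient of variation over the 8 libraries of 27.5% against 8.12%, at far lower counts. B2_Rat2 (6.71%), L1_Rat4 (8.74%) and B2_Rat4 (9.53%) were the most even of the 34 names, and RNLTR12-int (75.05%) and L1_Rat2 (124.1%) were among the least even. For RNLTR12-int the highest library had 9.47 times the CPM of the lowest, while the copies of that repeat varied by 13.99%.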

How the data were processed

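Small RNA libraries of 4 HFD and 4 CD rats were analysed. The values are raw counts deposited by the authors, made with featureCounts 1.4.6 per the file headers (mapping quality of at least 1, reverse strand for piRNAs, either strand for repeats) on rn5. By the paper, reads were aligned with Butter at its default settings, and uniquely aligned reads were counted on piRNAQuest and repBase annotations. Butter is known to place a read with several equal matches at one of them, guided by nearby reads. Whether such reads passed the mapping quality limit is not given in the sources used here. One CD library (replicate 4) has another library number in its count column, and its sample was taken from the record of the files. The mRNA and miRNA counts were not used.

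Places were overlapped with repeat copies by at least 1 base (bedtools 2.31.1). Entries, sums by repeat name and repeat names with a mean count of at least 1 were tested separately with edgeR 4.0.16 in R 4.3.3 (TMM, quasi-likelihood, Benjamini-Hochberg); DESeq2 1.42.0 was the other tool. An SE is the fold change over the root of its F statistic. Shares were compared by exact permutation in scipy 1.17.1. The fits were tested on simulated data. No pair of libraries differed by less than sampling noise (chi-square per degree of freedom 2.53 or more). The samples are separate rats by the paper.

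Entries named singly were the 10 with most counts, the 5 with the smallest p, those passing in any fit over all libraries, the entry with the most places and those at the limit of 100 places; repeat names were the 10 with most entries and the 10 with most counts. Members and lists were chosen with earlier results of these data known. Genes of the piRNA pathway were not tested, since no table pairs their identifiers with symbols.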

Additional observations from a re-analysis of the deposited data

Results flagged for a closer look

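Of 68 groups of 4 libraries examined (the shares, the entries and the repeat names described above, by diet), 2 held a library far from the other 3. Chance alone flags about 1 in 20 such groups. rat_piRNA_67932 had 4.71 CPM in CD replicate 3 and 0.917 to 1.05 CPM in the other CD libraries, which is 5 counts against 1 in each. The summed RNIAP1a entries had 200.3 CPM in CD replicate 1 and 268.6 to 278.6 CPM in the other CD libraries. These entries did not all go this way. rat_piRNA_62327 had 35 counts in CD replicate 1 and 118, 105 and 81 in the other CD libraries. By contrast, rat_piRNA_175616 had 27 in CD replicate 1 and 13, 14 and 11 in the other CD libraries.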

How the results depend on the processing

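Counts were low, with a median mean count of 2.75 per many-place piRNA, and libraries differed by more than the sampling of reads. Of the many-place piRNAs, 2 of 174 passed with no filter (rat_piRNA_62376 and rat_piRNA_62590). When 1 library was left out 0 to 1 passed, the 1 being rat_piRNA_62376 without CD replicate 3. Of all piRNAs, 28 of 10622 passed with no filter and 0 to 1 with a library left out. No summed group of many-place piRNAs passed under any setting, 0 to 0 with a library left out. With the replicate block 2 of 136 many-place piRNAs passed, rat_piRNA_62376 (log2 fold change 1.99, edgeR adjusted p = 0.0157) and rat_piRNA_62590 (-1.23, adjusted p = 0.0172). Of all 7818 piRNAs tested, 8 passed with this block. The other settings for many-place piRNAs gave 0. Libraries of the same number were not shown to be paired. The correlation of their deviations ran from -0.049 to 0.165 over all piRNAs tested, and 4 of 8 libraries correlated best with their own number. Over the many-place piRNAs tested it ran from -0.143 to 0.204, and 2 of 8 libraries correlated best with their own number. Between libraries of different numbers it ran from -0.356 to 0.321 over the many-place piRNAs. The cause of the changes in calls was not tested. The share differed by 0.0118 percentage points with the replicate block too (exact sign-flip test, p = 0.375, where 4 pairs allow no less than 0.125), and by 0.0010 to 0.025 with a library left out. The call on FordPrefect was lost (0 repeat names) at a mean count of at least 10, with DESeq2 and shrinkage, in the robust fit, and without HFD replicate 1 or 2 or any 1 of the CD libraries, so that 0 to 1 passed with a library left out. A count in every library was found for 95 many-place piRNAs, and between 167 and 174 had a count with a library left out. The median SD, 0.54 on average over the diets, was 0.59 with log2(CPM + 0.5), 0.12 on the VST scale and 0.35 at a mean count of at least 10, and 0.51 to 0.53 with a library left out. Of 51 entries and repeat names with a fold change given or tested here, 27 had the same sign in every fit and none was called in the test as planned.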
